A study of Mus musculus with 14 samples.

Results

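Primitive and definitive endoderm genes were followed by name through poly(A) RNA-seq of mouse embryonic stem cells (ESCs), and the 10 genes chosen were Gata4, Gata6, Sox7, Sox17, Foxa2, Pdgfra, Dab2, Sparc, Cubn and Amn, out of 41204 genes in the deposited table. Wild-type (WT) and Trincr1-ko ESCs from a C57BL/6(F) by 129/sv(M) cross were sequenced in 2 media, which gave 4 groups of 2 biological replicates, 8 libraries in all. In 2iL, a serum-free N2B27 medium held the MEK inhibitor PD0325901 at 1.0 µM, the GSK3 inhibitor CHIR99021 at 3.0 µM and leukemia inhibitory factor (LIF) at 1000 units per ml. For PDL, cells were plated in 2iL for 24 h and then kept for 4 days in the same base medium with PD0325901 and LIF, so that CHIR99021 was withdrawn while the MEK inhibitor stayed in all 4 groups. The knockout removes Trincr1 (Gm2694), a long noncoding RNA bound by the RNA-binding protein TRIM71. Whether the Trincr1-ko libraries come from 1 or more clones is not given in the labels, so p-values measure the spread between these libraries.

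Primitive endoderm is the extraembryonic lineage that separates from the epiblast in the blastocyst, and it later forms the parietal and visceral endoderm of the yolk sac. FGF signaling through ERK sustains Gata6 in its precursors, with Gata4, Sox17, Sox7 and Pdgfra following. Blocking MEK keeps the inner cell mass and ESCs free of primitive endoderm. Definitive endoderm arises later from the primitive streak under Nodal and Wnt signals and also uses Sox17, Foxa2 and Gata4, so these factors do not tell the lineages apart on their own.

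Expression was measured as FPKM, fragments per kilobase of transcript scaled to library depth, and differences are log2 fold changes on the log2(FPKM + 1) scale from limma with Benjamini-Hochberg adjustment over 15430 genes with a mean above 0.2 FPKM. This scale understates the change of genes near 0 FPKM. The steps between low FPKM values put the depth at 10.3 to 14.1 M fragments per library. Gm2694 was at 5.70 and 9.45 FPKM in WT and 0.0754 and 0 FPKM in Trincr1-ko ESCs in 2iL, and at 6.18 and 6.56 FPKM in WT and 1.38 and 0.746 FPKM in Trincr1-ko ESCs in PDL, so the targeted RNA was lower in Trincr1-ko ESCs in both media. Within Trincr1-ko ESCs it was higher in PDL than in 2iL by 0.98 ± 0.23 on the log2(FPKM + 1) scale (adjusted p = 0.0105). All 7 ESC markers (Pou5f1, Sox2, Nanog, Zfp42, Esrrb, Klf4, Dppa5a) were above 0 in all 8 libraries. Their summed level was 3303 to 3580 FPKM in 2iL, 2691 and 3035 FPKM in WT PDL, and 1721 and 1957 FPKM in Trincr1-ko PDL. The sum mostly follows Dppa5a, at 1910 and 1597 FPKM in WT PDL and 820 and 1024 FPKM in Trincr1-ko PDL. Zfp42 and Klf4 did not differ past the threshold between genotypes in PDL (limma adjusted p = 0.159 and 0.266).

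Against this background the endoderm genes were of 2 kinds. Sparc stood at 125.7 FPKM or more in all libraries, while the other 9 genes stayed at or below 2.82 FPKM, the level of Dab2 in 1 Trincr1-ko PDL library. Gata6, Sox7, Sox17 and Cubn did not reach the mean of 0.2 FPKM, and 6 of the 10 genes were tested. Pdgfra and Amn passed that minimum only through their Trincr1-ko PDL libraries. In bulk RNA, fewer cells of a type and less RNA per cell cannot be told apart.

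**Figure D1:**
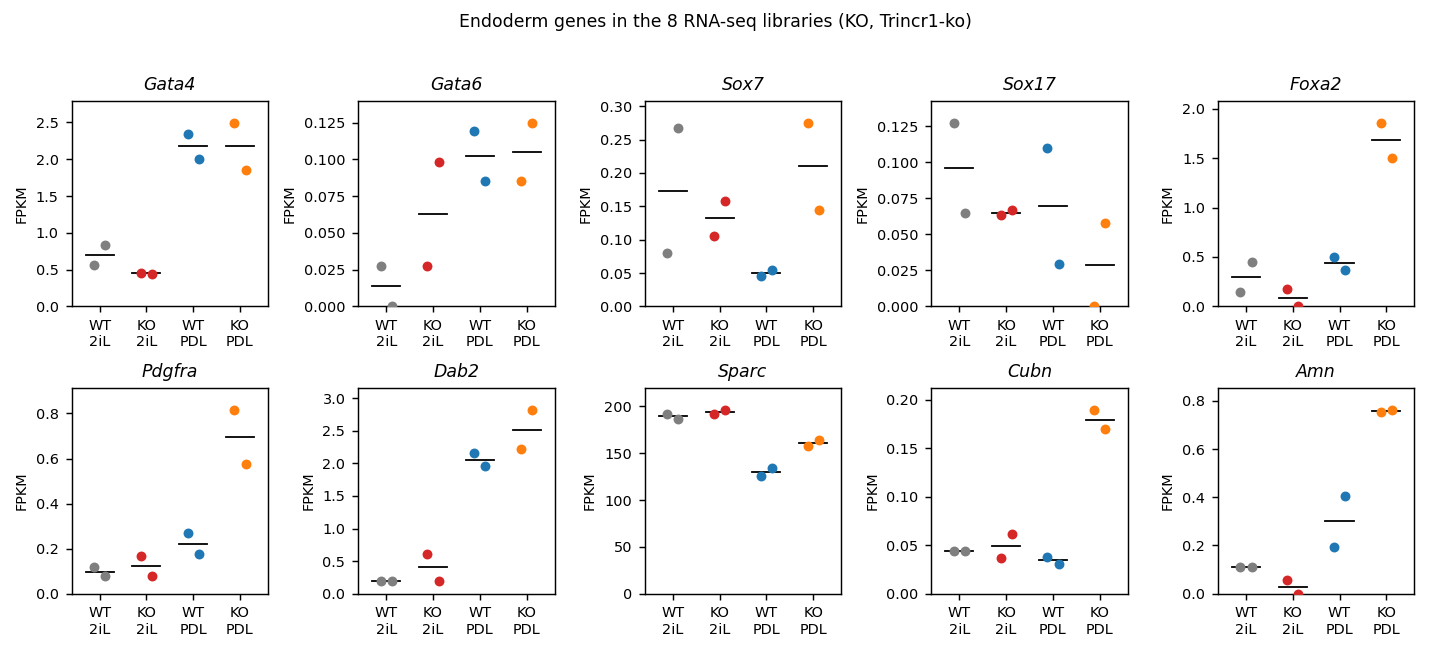
FPKM (vertical axis, linear, a separate scale per gene) of the 10 endoderm genes in the 8 libraries; points are libraries, bars are means of the 2 libraries in a group, and KO stands for Trincr1-ko. Foxa2, Pdgfra, Dab2, Cubn and Amn are highest in both Trincr1-ko PDL libraries, Gata4 and Dab2 are high in PDL in either genotype, and Sparc is lower in PDL.

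Promoters of Foxa2, Pdgfra, Dab2, Cubn and Amn are printed because both Trincr1-ko PDL libraries held more RNA of these 5 genes than any of the other 6 libraries. The share of all genes with this order was not counted, so nothing is read from the number of genes that had it. The sequences come from RefSeq on GRCm38.p6 and run 5′ to 3′ on the strand of the gene through the 250 bases before the start site nearest to the deposited 5′ end. For Cubn the last 48 of these bases, and for Dab2 the last 1, lie inside the deposited transcript and are left out. The table holds 6 of the 10 genes, and Gata4, Gata6, Sox7 and Sox17 were not matched. Capitals mark, on either strand, the GATA spelling (AGATAA or AGATAG or TGATAA or TGATAG), the SOX spelling (ACAATG or ACAAAG) and the TCF/LEF spelling (CTTTGAT or CTTTGAA).
Foxa2 (chr2:148046970-148047219, minus strand): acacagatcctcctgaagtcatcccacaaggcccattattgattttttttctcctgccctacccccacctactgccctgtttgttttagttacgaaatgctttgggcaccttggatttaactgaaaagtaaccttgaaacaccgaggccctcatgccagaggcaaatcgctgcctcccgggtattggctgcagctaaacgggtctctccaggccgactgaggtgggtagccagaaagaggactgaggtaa
Pdgfra (chr5:75152001-75152250, plus strand): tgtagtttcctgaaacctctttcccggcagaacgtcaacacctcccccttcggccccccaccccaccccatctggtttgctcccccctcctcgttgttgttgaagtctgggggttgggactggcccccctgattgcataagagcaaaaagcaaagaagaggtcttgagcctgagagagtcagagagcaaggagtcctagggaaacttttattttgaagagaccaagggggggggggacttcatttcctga
Dab2 (chr15:6299539-6299787, plus strand): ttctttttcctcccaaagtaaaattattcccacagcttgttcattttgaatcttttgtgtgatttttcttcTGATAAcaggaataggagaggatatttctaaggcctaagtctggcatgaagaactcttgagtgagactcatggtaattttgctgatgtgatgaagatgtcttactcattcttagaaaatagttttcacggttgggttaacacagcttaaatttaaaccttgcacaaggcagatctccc
Cubn (chr2:13491925-13492126, minus strand): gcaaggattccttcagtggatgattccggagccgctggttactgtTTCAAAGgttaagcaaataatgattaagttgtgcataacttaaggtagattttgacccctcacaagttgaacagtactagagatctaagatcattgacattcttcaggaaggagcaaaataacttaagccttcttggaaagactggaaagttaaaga
Amn (chr12:111270846-111271095, plus strand): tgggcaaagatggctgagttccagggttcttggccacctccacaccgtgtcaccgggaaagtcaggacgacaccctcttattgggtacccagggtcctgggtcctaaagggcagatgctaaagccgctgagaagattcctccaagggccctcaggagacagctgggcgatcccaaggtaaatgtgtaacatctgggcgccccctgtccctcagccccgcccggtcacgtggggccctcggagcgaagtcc
Of the 5 windows, that of Dab2 held 1 GATA match, 179 to 174 bases before the start site, and none held a SOX match. Of 32851 promoters of the same length, 26.5% held a GATA spelling, 25.2% a SOX spelling and 7.48% a TCF/LEF spelling. The Cubn window held 2 TCF/LEF matches, 1 of them printed 205 to 199 bases before the start site and the other 37 to 31 bases before it, in the part left out. These letters are a description of the windows and say nothing of binding.

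Gata4, a zinc finger factor of extraembryonic and gut endoderm and of heart (chr14:63198922-63271692, GRCm38), followed the medium. Its level in WT was 0.564 and 0.840 FPKM in 2iL and 2.34 and 2.01 FPKM in PDL, and in Trincr1-ko ESCs it was 0.449 and 0.445 FPKM in 2iL and 2.5 and 1.85 FPKM in PDL. All 4 PDL libraries lay above all 4 libraries in 2iL, and in PDL the genotypes overlapped. On the log2(FPKM + 1) scale Gata4 rose from 2iL to PDL by 0.90 ± 0.15 (SE) in WT (limma adjusted p = 0.00202) and by 1.13 ± 0.15 in Trincr1-ko ESCs (adjusted p = 0.000759). The log2 difference of Trincr1-ko from WT was -0.23 (95% interval -0.58 to 0.13) in 2iL and -0.0044 (-0.36 to 0.35) in PDL, and neither passed the test.

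Gata6, the earliest of the GATA factors of primitive endoderm, was at or near 0 throughout. In WT it was at 0.0277 and 0 FPKM in 2iL and 0.119 and 0.0856 FPKM in PDL, and in Trincr1-ko ESCs at 0.0275 and 0.0982 FPKM in 2iL and 0.0855 and 0.125 FPKM in PDL. At the estimated depth these levels stand for 0 to 5 fragments per library. The 2 PDL groups overlapped, and when genes of every level were tested, the log2 difference of Trincr1-ko from WT in PDL was 0.0036 (95% interval -0.11 to 0.12, adjusted p = 1.0). At this depth a difference in Gata6 was not detectable.

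The SOX factors of endoderm were as scarce. Sox17 (chr1:4490928-4496413), which acts in primitive and definitive endoderm, was at 0.128 and 0.0646 FPKM in WT 2iL, 0.0632 and 0.0669 FPKM in Trincr1-ko 2iL, 0.110 and 0.0292 FPKM in WT PDL, and 0 and 0.0577 FPKM in Trincr1-ko PDL. The genotypes of Sox17 overlapped in both media. Sox7 (chr14:63943674-63950732), its relative in parietal endoderm and vessels, was at 0.0803 and 0.267 FPKM in WT 2iL, 0.106 and 0.158 FPKM in Trincr1-ko 2iL, 0.0461 and 0.0551 FPKM in WT PDL, and 0.276 and 0.145 FPKM in Trincr1-ko PDL. The PDL genotypes of Sox7 did not overlap, with about 1.99 and 2.00 fragments in WT against 10.01 and 5.98 in Trincr1-ko ESCs, but 1 of the Trincr1-ko PDL levels lay within the range of the 2iL libraries and the other just above their highest, 0.276 against 0.267 FPKM. With genes of every level tested, the log2 difference in PDL was 0.20 ± 0.090 for Sox7 (adjusted p = 0.267) and -0.056 ± 0.054 for Sox17 (adjusted p = 0.612).

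Foxa2, a forkhead factor of visceral and definitive endoderm, node and notochord (chr2:148042877-148046969), set the genotypes apart in PDL. Its level in 2iL was 0.145 and 0.448 FPKM in WT and 0.177 and 0 FPKM in Trincr1-ko ESCs. These levels stand for about 3.35 and 10.3 fragments in WT and 4.13 and 0 in Trincr1-ko ESCs. In PDL it was 0.504 and 0.367 FPKM in WT and 1.86 and 1.5 FPKM in Trincr1-ko ESCs. The 2 Trincr1-ko PDL libraries were above the other 6, among which the groups overlapped except for the low Trincr1-ko 2iL libraries against WT PDL. In PDL, Foxa2 rose in Trincr1-ko against WT ESCs by 0.90 ± 0.17 (adjusted p = 0.0182), a ratio of mean FPKM of 3.85, or about 41.9 and 38.3 fragments against 13.5 and 8.26. This call was lost with any 1 of the 4 PDL libraries left out (adjusted p = 0.0527 to 0.106), with the PDL groups fitted alone (adjusted p = 0.0544) and with a pseudocount of 0.1 (adjusted p = 0.116). From 2iL to PDL, Foxa2 rose by 1.30 ± 0.17 in Trincr1-ko ESCs (adjusted p = 0.000593), and the change of 0.16 ± 0.17 in WT did not pass (adjusted p = 0.465). The difference between these, 1.15 ± 0.23, had an adjusted p of 0.0619.

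Pdgfra, the receptor for PDGF-A on primitive endoderm and on mesenchyme (chr5:75152291-75198204), was also highest in Trincr1-ko PDL. It was at 0.117 and 0.0777 FPKM in WT and 0.167 and 0.0766 FPKM in Trincr1-ko ESCs in 2iL, and at 0.269 and 0.174 FPKM in WT and 0.816 and 0.575 FPKM in Trincr1-ko ESCs in PDL. Both Trincr1-ko PDL libraries were above the other 6, and the 2iL groups overlapped. Trincr1-ko PDL held 61.1 and 49.0 estimated fragments of Pdgfra against 24.0 and 13.1 in WT PDL, a ratio of mean FPKM of 3.14. The log2 difference was 0.47 (95% interval 0.17 to 0.77), which missed the threshold (adjusted p = 0.0566) and passed it when genes of every level were tested (adjusted p = 0.0407). In Trincr1-ko ESCs, Pdgfra rose from 2iL to PDL by 0.59 ± 0.13 (adjusted p = 0.00700), and in WT the difference was 0.15 ± 0.13 (adjusted p = 0.350). Pdgfra entered this test only through its Trincr1-ko PDL libraries, the group in which it rose. With genes of every level tested, its rise in Trincr1-ko ESCs had an adjusted p of 0.00431.

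The ligand genes Pdgfa and Pdgfc were far more abundant than Pdgfra in 2iL, per length, and fell on CHIR99021 withdrawal. Of the 5 other genes of this list (Pdgfa, Pdgfb, Pdgfc, Pdgfd, Pdgfrb) 4 were tested, and from 2iL to PDL in WT 1 rose and 2 fell. Pdgfa, a ligand of Pdgfra, fell in WT from 56.6 and 58.5 FPKM to 16.6 and 16.9 FPKM, a log2 difference of -1.72 ± 0.077 (adjusted p = 8.71e-06). In PDL it was at 24.7 and 22.0 FPKM in Trincr1-ko ESCs, higher than in WT by 0.45 ± 0.077 (adjusted p = 0.0143), and it was the 1 gene of the list that differed there. Pdgfc fell by 2.48 ± 0.15 on the log2 scale from 2iL to PDL in WT (adjusted p = 2.55e-05), and Pdgfb rose by 0.81 ± 0.13 (adjusted p = 0.00193).

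Dab2, an adaptor that links lipoprotein receptors to clathrin and a long-used marker of primitive endoderm (chr15:6299788-6440712), followed the medium as Gata4 did. It was at 0.193 and 0.188 FPKM in WT and 0.616 and 0.196 FPKM in Trincr1-ko ESCs in 2iL, and at 2.16 and 1.95 FPKM in WT and 2.22 and 2.82 FPKM in Trincr1-ko ESCs in PDL. All PDL libraries were above all 2iL libraries, and replicate 1 of Trincr1-ko 2iL lay apart from the other 3 libraries in 2iL. Dab2 rose from 2iL to PDL by 1.36 ± 0.17 in WT (adjusted p = 0.000554) and by 1.33 ± 0.17 in Trincr1-ko ESCs (adjusted p = 0.000631), and the difference between the 2 changes was -0.026 (95% interval -0.60 to 0.55). Trincr1-ko ESCs differed from WT by 0.22 (-0.18 to 0.63) in 2iL and 0.20 (-0.21 to 0.60) in PDL, neither of which passed.

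Cubn and Amn encode cubilin and amnionless, the receptor pair that takes up vitamin B12 complexes, albumin and other ligands in visceral endoderm, kidney and gut, with the megalin gene Lrp2 as partner. Cubn (chr2:13276338-13491924) was at 0.0444 and 0.0442 FPKM in WT 2iL, 0.0366 and 0.0611 FPKM in Trincr1-ko 2iL, 0.0382 and 0.0304 FPKM in WT PDL, and 0.190 and 0.170 FPKM in Trincr1-ko PDL. Its 6 lower libraries held 4.01 to 7.02 estimated fragments, and the 2 Trincr1-ko PDL libraries held 25.0 and 25.3. With genes of every level tested, Cubn rose in Trincr1-ko against WT ESCs in PDL by 0.19 ± 0.028 (adjusted p = 0.0242), a ratio of mean FPKM of 5.24, while in 2iL the log2 difference was 0.0062 (95% interval -0.065 to 0.077).

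Amn (chr12:111271111-111276426) was at 0.112 and 0.112 FPKM in WT and 0.0558 and 0 FPKM in Trincr1-ko ESCs in 2iL. In PDL it was at 0.194 and 0.405 FPKM in WT and 0.752 and 0.762 FPKM in Trincr1-ko ESCs. In both media the genotypes did not overlap, with Trincr1-ko below WT in 2iL, on 0 to 2 estimated fragments per library, and above WT in PDL, with 13.0 and 15.0 fragments against 3.99 and 7.01. The log2 difference in PDL, 0.44 (95% interval 0.14 to 0.74), missed the threshold (adjusted p = 0.0645) and passed it with genes of every level tested (adjusted p = 0.0418). Amn rose from 2iL to PDL by 0.77 ± 0.13 in Trincr1-ko ESCs (adjusted p = 0.00187), and in WT the log2 difference was 0.22 ± 0.13 (adjusted p = 0.183). Amn, too, entered this test only through its Trincr1-ko PDL libraries. With genes of every level tested, its rise in Trincr1-ko ESCs had an adjusted p of 0.0014.

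The partner Lrp2 was the most abundant of these receptors in PDL. It was at 0.790 and 1.08 FPKM in WT and 0.407 and 0.384 FPKM in Trincr1-ko ESCs in 2iL, and at 13.7 and 14.8 FPKM in WT and 15.3 and 15.2 FPKM in Trincr1-ko ESCs in PDL. On the log2(FPKM + 1) scale Lrp2 rose from 2iL to PDL by 2.98 ± 0.11 in WT (adjusted p = 5.41e-06) and by 3.54 ± 0.11 in Trincr1-ko ESCs (adjusted p = 2.20e-06), and the genotypes did not differ past the threshold in either medium (adjusted p = 0.122 in 2iL and 0.630 in PDL). Of these 4 endocytic genes, all were highest in the 2 Trincr1-ko PDL libraries, and Lrp2 and Dab2 were high in WT PDL as well. By a wider rule, both Trincr1-ko PDL libraries were above both WT PDL libraries for 24.6% of all genes. The share of all genes highest in these 2 libraries among all 8 was not counted. For Dab2, as for Lrp2, the genotypes in PDL did not differ past the threshold (adjusted p = 0.50). Of 13 genes of the clathrin and receptor machinery, 8 rose and 0 fell from 2iL to PDL in WT, where 30.9% of all genes rose and 21.3% fell, and in Trincr1-ko ESCs 7 rose and 2 fell (Lrpap1 and Cltc). Among the genes that rose in WT was the endocytic motor Myo6 by 1.62 ± 0.18 (adjusted p = 0.000286). Between genotypes in PDL 1 of the 13 differed, the clathrin adaptor subunit gene Ap2m1, which was higher in Trincr1-ko ESCs by 0.50 ± 0.098 (adjusted p = 0.0227).

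**Figure D2:**
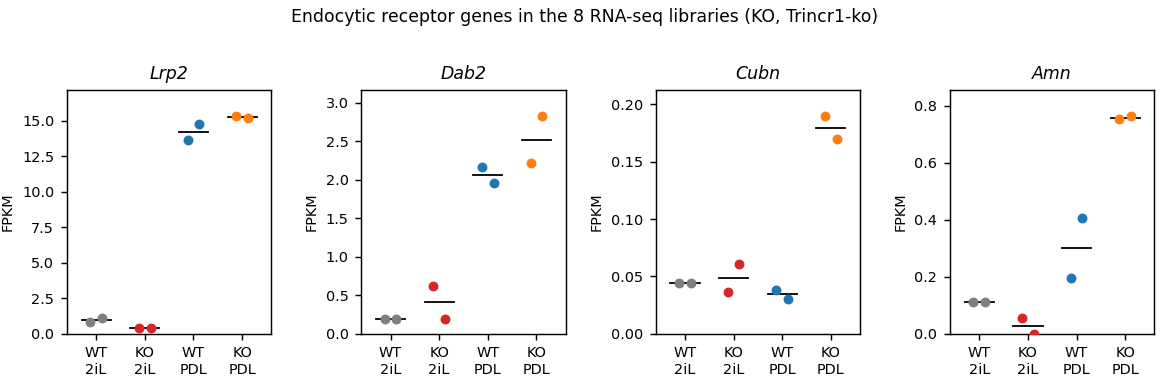
FPKM (vertical axis, linear, a separate scale per gene) of Lrp2, Dab2, Cubn and Amn in the 8 libraries; points are libraries and bars are means of 2 libraries, with KO for Trincr1-ko. All 4 genes are highest in the 2 Trincr1-ko PDL libraries, and for Lrp2 (13.7 and 14.8) and Dab2 (2.16 and 1.95) the WT PDL libraries lie close below them. For Lrp2 and Dab2 the genotypes in PDL did not differ past the threshold.

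Sparc, a secreted glycoprotein of basement membranes that parietal endoderm makes in large amounts and many other cells make too (chr11:55394500-55420080), was the most abundant of the 10 genes in all 8 libraries. It was at 192 and 186 FPKM in WT and 192 and 196 FPKM in Trincr1-ko ESCs in 2iL, and at 126 and 134 FPKM in WT and 158 and 164 FPKM in Trincr1-ko ESCs in PDL. The 2iL genotypes overlapped, WT PDL was lowest and Trincr1-ko PDL lay between. Sparc fell from 2iL to PDL by 0.54 ± 0.045 on the log2 scale in WT (adjusted p = 8.48e-05) and by 0.27 ± 0.045 in Trincr1-ko ESCs (adjusted p = 0.00225), the direction opposite to the other 5 tested genes. In PDL it was higher in Trincr1-ko than in WT ESCs by 0.31 ± 0.045 (adjusted p = 0.00848, ratio of mean FPKM 1.24). This call was lost without WT PDL replicate 1 (adjusted p = 0.0514) or Trincr1-ko PDL replicate 2 (adjusted p = 0.0507) and with the PDL groups fitted alone (adjusted p = 0.0587). The difference of the genotype effect between the media, 0.27 ± 0.064, did not pass (adjusted p = 0.0833).

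Across the genes, the genotype comparison in 2iL gave 0 of 6 tested genes past the threshold by limma, where 0.350% of all genes tested were higher and 0.855% lower in Trincr1-ko ESCs, and 0 of the 6 had an unadjusted p under 0.05, against 14.6% of all genes. Of the 10 genes, Dab2 was higher in both Trincr1-ko libraries than in both WT libraries, as were 17.3% of all genes, and Gata4 and Amn were lower, as were 18.3%. None of the 6 passed the fold rule of the study, a ratio of group means above 2 at an average of at least 1 FPKM, which 0.687% of all genes passed upward.

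In PDL, 2 of 6 tested genes, Foxa2 and Sparc, were higher in Trincr1-ko ESCs by limma, against 6.29% of all genes, and 0 were lower, against 5.77%. In 7 of the 10 genes (Sox7, Foxa2, Pdgfra, Dab2, Sparc, Cubn and Amn) both Trincr1-ko libraries were above both WT libraries, which held for 24.6% of all genes, and in 0 of 10 were both below, which held for 22.0%. By the fold rule Foxa2 alone passed, as did 1.45% of all genes. The genotype effect differed between the media in 0 of 6 genes by limma, against 1.81% of all genes, with 4 of the 6 at an unadjusted p under 0.05, against 19.0% of all genes. Pdgfra and Amn are among these 4 and were tested only because of their Trincr1-ko PDL levels, so nothing is read from this count.

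**Figure D3:**
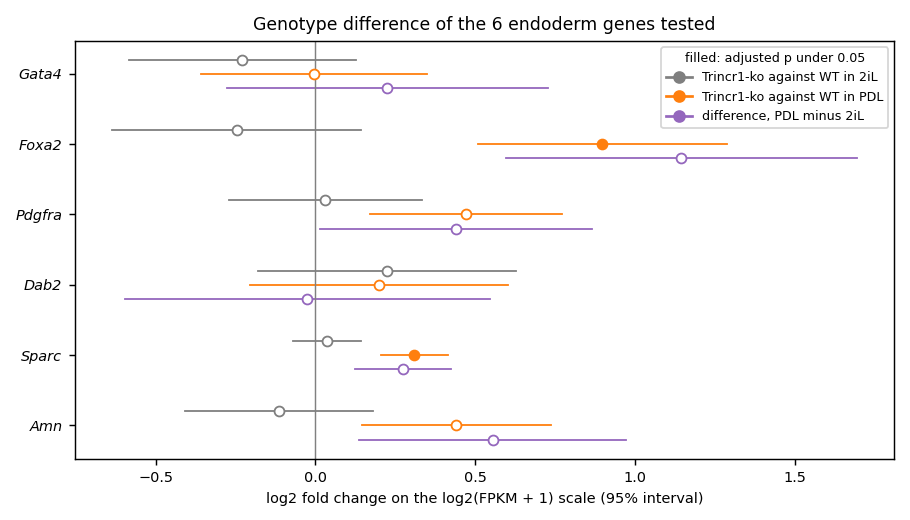
Log2 fold change on the log2(FPKM + 1) scale (horizontal axis, lines are 95% intervals) of the 6 endoderm genes tested, for Trincr1-ko against WT in 2iL, in PDL, and for the difference between the media; filled points had an adjusted p under 0.05. Foxa2 (0.90) and Sparc (0.31) are filled in PDL, and no gene is filled in 2iL or for the difference.

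The medium gave more calls, as it did over all genes. In WT, Gata4 and Dab2 rose from 2iL to PDL and Sparc fell, 2 and 1 of 6 genes, against 30.9% of all genes higher and 21.3% lower. In Trincr1-ko ESCs, Gata4, Foxa2 and Dab2 rose and Sparc fell, where 29.6% of all genes rose and 20.3% fell. Pdgfra and Amn passed too, but they were tested only because of their Trincr1-ko PDL levels, so nothing is read from their count. By the fold rule Gata4 and Dab2 passed upward in either genotype, as did 10.7% of all genes in WT and 10.9% in Trincr1-ko ESCs. Foxa2, Pdgfra and Amn passed the test in Trincr1-ko ESCs and not in WT, but for none of them was the difference between genotypes itself past the threshold (adjusted p = 0.0619, 0.249 and 0.158). This contrast and the genotype comparisons use the same libraries.

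**Figure D4:**
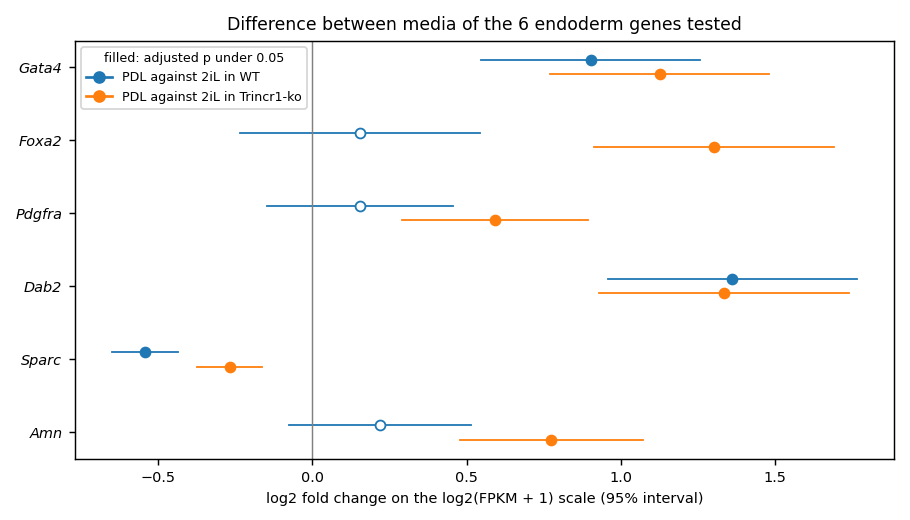
Log2 fold change from 2iL to PDL on the log2(FPKM + 1) scale (horizontal axis, lines are 95% intervals) of the 6 endoderm genes tested, in WT and in Trincr1-ko ESCs; filled points had an adjusted p under 0.05. Gata4 and Dab2 lie near 1 in both genotypes, Sparc lies below 0 in both, and Foxa2, Pdgfra and Amn are filled in Trincr1-ko ESCs and not in WT.

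Other genes of the same families and tissues were taken from lists and set beside these counts. The lists were chosen with earlier results of these data known, so their counts describe the lists and are not a test. Of all genes tested, 6.29% were higher and 5.77% lower in Trincr1-ko than in WT ESCs in PDL. In 2iL these shares were 0.350% and 0.855%. In PDL, of 8 tested paralogs of the 10 genes, 1 was higher in Trincr1-ko ESCs, the GATA factor Gata2, at 7.55 and 10.4 FPKM against 4.23 and 3.23 FPKM in WT (1.07 ± 0.18, adjusted p = 0.0122). Gata2 and Gata3, which serve in trophoblast and blood, also rose from 2iL to PDL in WT, by 1.83 ± 0.18 (adjusted p = 0.000164) and 1.52 ± 0.12 (adjusted p = 7.37e-05). Gata1, a blood factor, was at 0.633 and 1.11 FPKM in WT PDL and 1.26 and 1.00 FPKM in Trincr1-ko PDL and passed no test.

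Among the lists, genes that parietal endoderm expresses with Sparc had the most calls between genotypes in PDL. Of 11 tested genes of that list, 9 were higher and 0 lower in Trincr1-ko PDL than in WT PDL, against 6.29% and 5.77% of all genes. Because the list was chosen with earlier results of these data known, nothing is read from this share. The median log2 difference of the list was 0.83, where the median of all genes was 0.01. Col4a2 was higher by 0.44 ± 0.18 and did not pass (adjusted p = 0.159). The laminin chain gene Lama1 went the other way, at 3.0 and 2.8 FPKM against 3.8 and 3.3 FPKM in WT PDL (-0.21 ± 0.10, adjusted p = 0.23). Thbd, of the same list, was too low to be tested. It was at 0.170 and 0.170 FPKM in Trincr1-ko PDL and 0.243 and 0.0969 FPKM in WT PDL, so the genotypes overlapped. The keratin gene Krt8 was at 147 and 142 FPKM against 62.0 and 71.8 FPKM (1.10 ± 0.10, adjusted p = 0.00274), the plasminogen activator Plat at 4.48 and 4.25 FPKM against 1.44 and 1.76 FPKM (1.05 ± 0.12, adjusted p = 0.00456), and the repressor Snai1 at 12.4 and 10.9 FPKM against 3.24 and 2.06 FPKM (1.81 ± 0.18, adjusted p = 0.00288). These genes are not particular to parietal endoderm: keratins are made by trophoblast and other epithelia, and Snai1 acts wherever epithelia change to mesenchyme. Snai1 was also higher in Trincr1-ko ESCs in 2iL (2.00 ± 0.18, adjusted p = 0.00514), while in 2iL 1 of the 11 was higher and 0 lower in all. The list also moved with the medium in WT. From 2iL to PDL in WT, 8 of the 11 rose and 2 fell, against 30.9% and 21.3% of all genes, with a list median of 1.90. Krt8 rose there by 2.38 ± 0.10 (limma adjusted p = 7.86e-06).

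Over 12 basement membrane genes, 5 were higher and 1 lower in Trincr1-ko PDL than in WT PDL, against 6.29% and 5.77% of all genes. The median log2 difference of the list was 0.25. The lower gene was Nid2, at 72.9 and 74.4 FPKM against 89.0 and 87.5 FPKM (-0.26 ± 0.046, adjusted p = 0.0166). The collagen chain gene Col4a1 was at 15.4 and 13.7 FPKM against 8.72 and 8.45 FPKM (0.69 ± 0.11, adjusted p = 0.0114), and the collagen chaperone Serpinh1 at 109.5 and 99.0 FPKM against 63.9 and 71.5 FPKM (0.62 ± 0.078, adjusted p = 0.00551). The laminin chain gene Lamb1 was higher by 0.48 ± 0.10 (adjusted p = 0.0273). Col4a1 and Lamb1 stand in the parietal endoderm list as well.

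Among 16 other genes of visceral endoderm, Afp, Ttr, Apoa4 and Cer1 were listed at 0 in all 8 libraries, and of the 7 tested, 0 were higher and 1 lower in Trincr1-ko PDL. That gene was Apoe, at 363 and 374 FPKM against 667 and 750 FPKM (-0.94 ± 0.070, adjusted p = 0.00170), an apolipoprotein that ESCs express at a high level themselves. In 2iL 1 of the 7 was lower in Trincr1-ko ESCs, the Nodal inhibitor Lefty1 (-1.03 ± 0.15, adjusted p = 0.0274), a call that held in 3 of 15 alternatives (adjusted p = 0.0178 to 0.226).

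Of 7 tested genes of definitive endoderm and its precursor, 1 was higher and 2 were lower in Trincr1-ko PDL. The chemokine receptor Cxcr4 was at 2.5 and 3.20 FPKM against 1.43 and 0.964 FPKM (0.81 ± 0.17, adjusted p = 0.0259). Nodal, the ligand that induces definitive endoderm, was lower by 0.61 on the log2 scale, at -0.61 ± 0.087 (adjusted p = 0.00812), and so was the repressor Prdm1 (-1.19 ± 0.20, adjusted p = 0.0139). The median of this list was -0.30.

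Of 10 tested genes of the FGF input and its opponents in the epiblast, 2 were higher and 3 lower in Trincr1-ko PDL. Fgf4, the ligand that ESCs supply, was at 54.6 and 58.9 FPKM against 82.8 and 81.3 FPKM (-0.52 ± 0.048, adjusted p = 0.00267), and Nanog, which opposes Gata6, at 151 and 169 FPKM against 236 and 209 FPKM (-0.47 ± 0.070, adjusted p = 0.00876). The receptor Fgfr1 was higher by 0.44 ± 0.069 (adjusted p = 0.0111). Fgfr2, the receptor enriched in primitive endoderm and trophoblast, rose from 2iL to PDL in WT from 1.28 and 0.684 FPKM to 39.6 and 37.9 FPKM (4.34 ± 0.17, adjusted p = 6.13e-06).

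**Figure D5:**
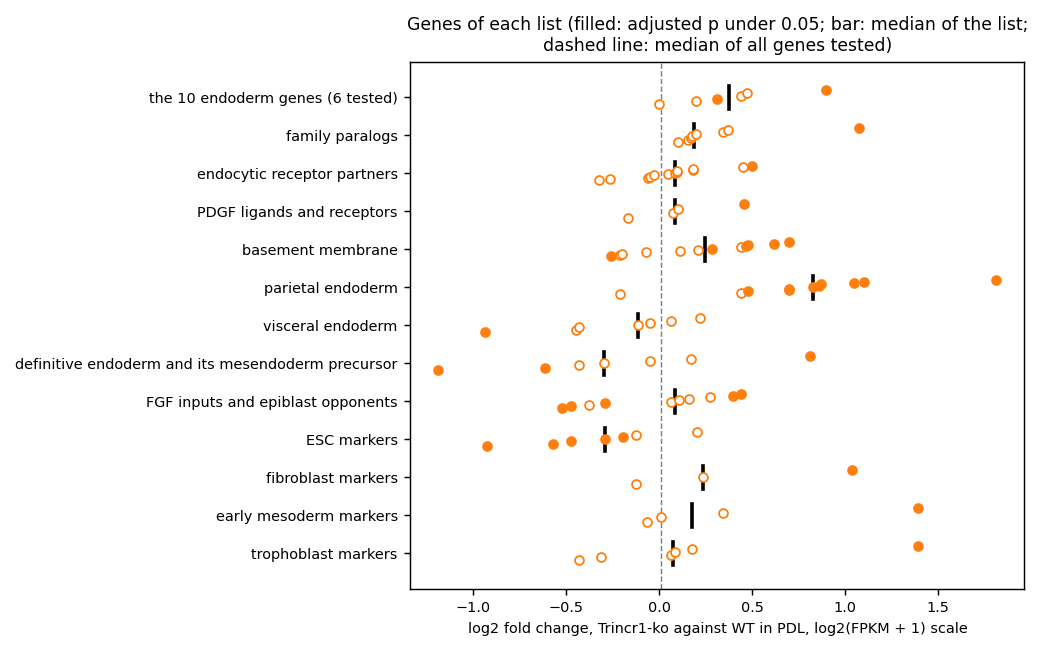
Log2 fold change of Trincr1-ko against WT in PDL on the log2(FPKM + 1) scale (horizontal axis) for the tested genes of each list; points are genes, filled where the adjusted p was under 0.05, bars are list medians and the dashed line is the median of all genes tested (0.01). The parietal endoderm list lies furthest to the right (median 0.83), and some genes stand in more than 1 list.

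Markers of other cell types moved in the same comparison. Of 7 ESC markers, 5 were lower and 0 higher in Trincr1-ko PDL than in WT PDL, among them Esrrb (-0.57 ± 0.059, adjusted p = 0.00334). The 7 fibroblast markers summed to 5.56 and 6.40 FPKM in Trincr1-ko PDL, 4.14 and 4.59 FPKM in WT PDL and 0.556 to 1.35 FPKM in 2iL, with 2 to 4 of them at 0 per library, and 1 of 3 tested, Col1a1, was higher in Trincr1-ko PDL (1.03 ± 0.11, adjusted p = 0.00370). The 6 early mesoderm markers summed to 3.82 and 4.15 FPKM in Trincr1-ko PDL, 1.20 and 1.37 FPKM in WT PDL and 2.31 to 3.55 FPKM in 2iL. This sum mixes opposite changes: it was mostly T in 2iL (1.61 to 2.49 FPKM) and mostly Hand1 in Trincr1-ko PDL (2.82 and 2.92 FPKM). Of 4 tested, 1, Hand1, was higher (1.39 ± 0.11, adjusted p = 0.00188), while Mesp1 was at 0 in both Trincr1-ko PDL libraries. Hand1 reached the mean of 0.2 FPKM only through its Trincr1-ko PDL libraries, but its call held with genes of every level tested. The 7 trophoblast markers, which include Hand1, summed to 41.7 and 47.6 FPKM in Trincr1-ko PDL, 47.9 and 54.8 FPKM in WT PDL and 20.8 to 28.9 FPKM in 2iL, and Cdx2 was higher in Trincr1-ko ESCs in 2iL (1.19 ± 0.14, adjusted p = 0.0120). The part of such cells in the endoderm gene values was not tested.

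The FLAG-TRIM71 RNA pulldown was made from ESCs in 2iL that overexpressed FLAG-TRIM71. Each transcript has a single deposited value in the input and a single value in the immunoprecipitate (IP), and so no error and no test. The labels also list an empty control IP (IP_empty), of which no values were used here. In this pulldown 4 of the 10 genes were listed. For Sparc the input held 499.9 FPKM against 98.9 FPKM after scaling of the IP, a ratio of 0.198, and the median ratio of 104 transcripts within 1.5 times its input was 0.240. Gata4 had an input of 3.7 FPKM and was at 0 in the IP, as were 69.4% of 2151 transcripts of like input, and Dab2 (0.6 FPKM) and Gata6 (0.2 FPKM) were also at 0 in the IP. The study called RNAs bound at an input above 2 FPKM and a ratio above 3. Sparc and Gata4 had an input above 2 FPKM, and neither reached that ratio. Of 14054 transcripts of any input, 492 passed both cutoffs. Foxa2, Pdgfra, Cubn, Amn, Sox7 and Sox17 were not analysed there.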

How the data were processed

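Poly(A) RNA-seq of 8 ESC libraries and a FLAG-TRIM71 pulldown with its input were used. The authors aligned reads with STAR 2.5.0, computed expression with Cufflinks 2.2.1 and deposited normalized FPKM values per gene and library, with 1 FPKM column each from the IP and its input and a second pair that they scaled. The methods name mm9, but within 1000 bases 76.6% of 20004 deposited gene loci matched RefSeq on GRCm38.p6 and 5.20% of 20540 matched NCBIM37, so coordinates are given as GRCm38. A column of the authors' own folds of enrichment was not used. No read counts were used here. Depth was estimated from the steps of low FPKM values of genes with 1 transcript of 500 to 4000 bases, with 220 bases taken off the length, and came to 10.3 to 14.1 M fragments per library; fragments printed for a gene are estimates from that depth and carry counting error.

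Of 41260 entries, 39 gene identifiers had more than 1, of which the highest was kept, leaving 41204 genes. Log2(FPKM + 1) of the 15430 genes with a mean above 0.2 FPKM entered 1 limma fit over all 4 groups (limma 3.58.1, R 4.3.3), which left 4 residual degrees of freedom, with a variance trend, 2-sided tests and Benjamini-Hochberg adjustment at 0.05. The 5 comparisons were Trincr1-ko against WT in each medium, PDL against 2iL in each genotype, and whether the genotype effect changed with the medium. The fold rule of the study was applied with values under 0.1 FPKM set to 0.1. The method was tested on simulated data. Summaries and plots were made in Python 3.11.15 with matplotlib 3.10.9, scipy 1.17.1, numpy 2.4.6 and pandas 2.3.3.

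The 10 genes and the 12 lists were chosen with earlier results of these data known. All 10 genes are reported, and of each list at most the 3 called genes with the largest change whose replicates do not overlap, besides Gm2694 and Lrp2. Foxf1, from the lists, had no entry in the table. Krt18 and Krt19 were named for the medium comparison and given for the others after their values were seen. Gata1, Lrpap1, Cltc, Lama1, Col4a2, Thbd, Nid2 and Lamc1 were named after their values were seen. Values of T, Dppa5a, Zfp42 and Klf4 were added likewise. Alternatives covered the pseudocount, the filter, scaling, the variance trend, the samples fitted, the replicate block, each library left out and the cutoffs of the fold rule. Replicate numbers did not mark shared cultures (correlations of deviations -0.054 to 0.006), so samples were not paired.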

Additional observations from a re-analysis of the deposited data

Results flagged for a closer look

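The genotype effect of Amn and of Lrp2 had opposite signs in the 2 media, with both Trincr1-ko libraries below WT in 2iL and both above WT in PDL. The log2 difference between the effects was 0.55 for Amn (limma adjusted p = 0.158) and 0.56 for Lrp2 (adjusted p = 0.120), so neither passed the test. In 2iL the Amn values rest on 0 to 2 estimated fragments per library.

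Among parietal endoderm genes the genotype effect was larger in PDL than in 2iL, by the test of the difference itself, for Krt18 (1.43, adjusted p = 0.0187), Krt19 (1.34, adjusted p = 0.0331), Krt8 (1.29, adjusted p = 0.0210), Plat (1.14, adjusted p = 0.0331) and Col4a1 (0.90, adjusted p = 0.0429). For all 5 both Trincr1-ko libraries were below WT in 2iL and above WT in PDL. For Plat the 2iL values lay near 0, at 0.0707 and 0 FPKM in Trincr1-ko against 0.0713 and 0.142 FPKM in WT ESCs, so nothing is read from that order. The calls passed in 2 to 8 of the 14 alternatives per gene. For Gata3 the same pattern of signs gave a difference of 0.24, which did not pass (adjusted p = 0.505). Among other basement membrane genes the effect differed for Lamc1 (0.32, adjusted p = 0.0490) and, with the opposite sign, for Nid2 (-0.48, adjusted p = 0.0277).

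The effect also differed for the markers Hand1 (1.36, adjusted p = 0.0231), Col1a1 (1.11, adjusted p = 0.0280), Esrrb (-0.67, adjusted p = 0.0267) and Cdx2 (-1.11, adjusted p = 0.0430), and for Apoe (-0.96, adjusted p = 0.0187), which was lower in Trincr1-ko ESCs in PDL and overlapped in 2iL. These calls passed in 3 of 13 alternatives for Hand1, 3 of 13 for Col1a1, 6 of 14 for Esrrb, 1 of 13 for Cdx2 and 9 of 14 for Apoe. Hand1 was tested here only because of its Trincr1-ko PDL levels.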

How the results depend on the processing

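With 2 libraries per group, the counts of calls moved with the settings more than the directions did. For the 6 tested endoderm genes over all 5 comparisons, 409 of the recomputed values kept direction and side of the threshold, 9 lost and 4 gained a call and 7 reversed; the cause was not tested. In PDL, 2 of the endoderm genes differed between genotypes, 1 with a pseudocount of 0.1 or a mean above 1 FPKM, 5 with no filter, 4 without the variance trend, 0 with the 2 groups fitted alone and 0 to 2 with a library left out. From 2iL to PDL in Trincr1-ko ESCs, 3 of them remained testable and called with a mean above 1 FPKM. With an average of at least 0.2 FPKM in the fold rule, 1 gene passed in 2iL (Dab2), 3 in PDL (Foxa2, Pdgfra, Amn) and 5 from 2iL to PDL in Trincr1-ko ESCs.

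Over all genes, 186 differed between genotypes in 2iL, 122 with no filter, 0 with the 2 groups alone and 40 to 113 with a library left out. In PDL 1861 differed, 316 with the 2 groups alone and 335 to 1519 with a library left out. The effect differed between media for 279 genes, 138 with no filter, 88 without the trend and 3 to 34 with a library left out. Between genotypes in PDL, 1536 genes differed with a pseudocount of 0.1 and 1909 with a mean above 1 FPKM. There, 1519 of 22266 genes differed with no filter and 1378 without the trend. With a replicate block, 111 genes differed in 2iL, 1302 in PDL and 39 between media, and the calls of the endoderm genes did not change.

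Of the other genes named for PDL, Krt8, Snai1, Apoe, Fgf4, Esrrb, Hand1 and Col1a1 passed in all alternatives run and the rest in 8 (Ap2m1) to 14 (Plat) of 15. Lama1, Col4a2, Thbd, Nid2, Lamc1, Dppa5a, Zfp42 and Klf4 were not followed through the alternatives and are not counted here.

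With a library left out, the log2 difference ranged as follows where its sign turned, none of these passing the test. For Gata4 in PDL it was -0.15 to 0.14, for Pdgfra in 2iL -0.027 to 0.089, for the difference of the Dab2 effect between media -0.24 to 0.19, for Foxa2 from 2iL to PDL in WT -0.014 to 0.33 and for Gm2694 there -0.50 to 0.14. At 0 to 10 estimated fragments per library, depth limits what can be said of Gata6, Sox7, Sox17, Cubn and Amn outside Trincr1-ko PDL. The same limit holds for Foxa2, with 0 to 10.3 estimated fragments in 2iL and 13.5 and 8.26 in WT PDL.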
